A study of Homo sapiens with 6 samples.

Results

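The genes described are those that encode the proteins of the mitochondrial ribosome and carry the symbols MRPL (large subunit) or MRPS (small subunit). All symbols of this form in the count table were taken and pseudogenes were left out, which gave 76 of the 32357 genes, 47 of the large and 29 of the small subunit. They were followed in 6 RNA-seq libraries from 786-O and A-498, established human clear cell renal cell carcinoma (ccRCC) lines. Each line gave 1 library with a non-targeting hairpin (the control), 1 with hairpin 1 and 1 with hairpin 3 against ZNF395, which encodes a zinc finger protein. Every library, controls included, came from cells stably transduced with a retroviral MISSION shRNA construct whose virus was made in HEK293T (human embryonic kidney cells), and had been selected with puromycin. Total RNA was made into strand-specific libraries. Each combination of line and construct is a single library, so the lines serve as replicates for a hairpin, and every p-value below measures only the spread between these libraries.

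Mitochondria make a small set of proteins themselves, from genes on mitochondrial DNA, and these are subunits of the respiratory chain and the ATP synthase. The ribosome that does so is built from rRNAs transcribed in the organelle and from proteins that are encoded in the nucleus, made in the cytosol and imported. Some of these proteins descend from bacterial ribosomal proteins and others are found only in mitochondria. The name of a gene does not always give the place of its product: the proteins of MRPS30 and MRPS18A sit in the large subunit, and MRPS36 is now known as a component of the 2-oxoglutarate dehydrogenase complex. All subunit sums, medians and counts here follow the symbol, so MRPS30, MRPS18A and MRPS36 are counted with the small subunit. Clear cell renal carcinoma is known for a low use of mitochondrial respiration, driven in large part by loss of the VHL tumour suppressor.

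Total counts ran from 77534125 to 99147218 per library. Levels below are in CPM, counts relative to library size, scaled by TMM to correct for differences in RNA composition, and fold changes are log2 values from edgeR's quasi-likelihood test with their standard error (SE). A gene was called at an adjusted p under 0.05 over all 20144 genes tested. Values of a line are given in the order control, hairpin 1, hairpin 3. ZNF395 stood at 96.3, 24.7 and 13.5 CPM in 786-O and at 67.9, 14.5 and 14.3 CPM in A-498. Hairpin 1 changed it by -2.08 on the log2 scale (SE 0.209, edgeR adjusted p = 0.0269), hairpin 3 by -2.52 (SE 0.213, edgeR adjusted p = 0.00973). Of the 10 lineage markers, PAX8 (157 to 256 CPM) and KRT8 (589 to 1330 CPM) were high in every library, whereas CA9, a hallmark of ccRCC, did not exceed 1.68 CPM. NDUFA4L2, EPCAM and LRP2 were low as well, with at most 1.16, 2 and 0.0499 CPM. VEGFA was at 141 to 342 CPM, KRT18 at 71.2 to 213, PAX2 at 17.7 to 26.6 and ANGPTL4 at 2.9 to 35.9. The summed levels of 4 endothelial and 4 immune markers stayed under 1 CPM in each library (highest 0.293 and 0.899 CPM). Of 5 fibroblast markers the sum was 5.55 to 6.41 CPM in 786-O and 0.736 to 1.14 CPM in A-498. Markers associated with HEK293 cells summed to 208 to 266 CPM in 786-O and 406 to 504 CPM in A-498, most of it NEFL. Among these markers, LIN28B and INA did not exceed 0.0128 and 0.0401 CPM, while NEFM and GAD1 reached 45.2 and 78.9 CPM in A-498. The part of the HEK293-associated markers in the differences between the lines was not tested.

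All 76 genes were present in the table, and together they took 0.316 to 0.345% of each library's counts. Summed over the large subunit, the level was 2193, 2229 and 2214 CPM in 786-O and 2027, 1991 and 1875 CPM in A-498. For the small subunit the sums were 1285, 1306 and 1263 CPM in 786-O and 1287, 1248 and 1150 CPM in A-498. Knockdown thus left both sums close to the control in 786-O, and the lowest sum of each subunit was that of A-498 with hairpin 3. Since these are bulk libraries, fewer cells of a type and less RNA per cell cannot be told apart.

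Levels of different genes were compared per kilobase of transcript, with lengths from the principal transcripts of GENCODE v29. The median of the 75 genes tested was 27.4 CPM per kb, with 31.1 for the large and 22.1 for the small subunit. MRPL33, a very small protein with a bacterial counterpart, was the highest at 145 CPM per kb, with a range over libraries of 99.5 to 188. MRPL15 (83.6 CPM per kb, 73.8 to 98.3) and MRPL3 (78.6, 59.6 to 101) followed. The ranges of MRPL15 and MRPL3 overlapped, and that of MRPL3 reached the lowest library of MRPL33, so their order is not resolved. The MRPS18 paralogs, 3 genes related to bacterial S18, differed in level: MRPS18B had 28.7 CPM per kb (24.3 to 33.9), against 7.39 (6.32 to 8.77) for MRPS18A and 6.29 (5.32 to 6.79) for MRPS18C. MRPS18B was thus above both others in every library, while the ranges of MRPS18A and MRPS18C overlapped. On the opposite strand, RSPH9 covers 47.0% of the exonic bases of MRPS18A and ABRAXAS1 40.2% of those of MRPS18C, whereas MRPS18B has no exonic overlap. The strand setting of the counts is not given, and the part of this overlap in the 3 levels was not tested. MRPS36 had 10.6 CPM per kb (9.33 to 11.9). MRPL12, part of the stalk that recruits translation factors, had only 6.43 (5.47 to 7.69).

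At the low end stood MRPL30 with 0.0114 CPM per kb, MRPL38 with 0.936 (0.74 to 1.26) and MRPS24 with 1.05 (0.912 to 1.41). MRPL30 had at most 4 counts in any library, 0.0128 to 0.0506 CPM, and was the only member that the expression filter removed. Their products are components of the ribosome, and overlap with other annotated genes was frequent at the low end. In GENCODE v29, 41 of the 76 genes share exonic sequence with another gene. The 7 genes with at least 20% of their exonic bases covered by a gene on the same strand had a median of 6.43 CPM per kb (0.936 to 145), compared with 32.3 (6.96 to 83.6) for the 35 genes with no overlap. MRPL38 is covered to 37.5%, MRPS24 to 23.2% by the read-through gene URGCP-MRPS24, MRPL53 to 45.2% by CCDC142 and MRPL12 to 68.2% by AC139530.2. MRPL33, the highest, is covered to 21.1% by BABAM2. The sources used here do not give the counting tool or its rule for shared reads, so the absolute levels of these genes are uncertain. Whether the counting rule lowers them was not tested.

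The sequences around the transcription start are shown for the 5 members that fell with hairpin 3 and for MRPS34 and MRPS12, which had the lowest p-values with hairpin 1, because the results on knockdown turn on these 7 genes. Each run holds 75 bases before and 25 bases from the start onward, 5′ to 3′ on the gene's strand, from RefSeq on GRCh38.p14. On the plus strand lie chr5:44808872-44808971 (MRPS30), chr2:27771644-27771743 (MRPL33), chr4:77862755-77862854 (MRPL1), chr12:27710757-27710856 (MRPS35) and chr19:38930869-38930968 (MRPS12). On the minus strand lie chr11:59810754-59810853 (MRPL16) and chr16:1773110-1773209 (MRPS34). Capitals mark matches on either strand to the core of the GABPA (ETS) motif, CCGGAAG, to the NRF1 motif (GCGCA, any base, then GCGC) or to the YY1 motif, AANATGGCG, and no printed match overlaps another.
MRPS30: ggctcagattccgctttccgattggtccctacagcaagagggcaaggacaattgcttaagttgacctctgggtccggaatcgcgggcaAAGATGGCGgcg
MRPL16: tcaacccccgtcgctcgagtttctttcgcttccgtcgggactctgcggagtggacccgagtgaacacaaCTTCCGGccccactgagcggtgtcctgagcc
MRPL33: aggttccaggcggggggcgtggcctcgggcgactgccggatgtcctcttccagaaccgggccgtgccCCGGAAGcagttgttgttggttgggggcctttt
MRPL1: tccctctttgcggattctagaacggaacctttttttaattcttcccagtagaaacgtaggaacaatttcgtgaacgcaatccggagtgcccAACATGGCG
MRPS35: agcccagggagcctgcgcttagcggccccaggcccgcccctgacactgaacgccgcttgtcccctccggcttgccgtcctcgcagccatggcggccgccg
MRPS34: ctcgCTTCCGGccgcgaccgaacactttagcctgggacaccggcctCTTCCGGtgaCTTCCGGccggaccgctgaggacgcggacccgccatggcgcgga
MRPS12: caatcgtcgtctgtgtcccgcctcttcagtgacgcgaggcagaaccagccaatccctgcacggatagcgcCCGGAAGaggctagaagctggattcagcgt
GABPA matches start 6 bases before the transcription start in MRPL16, on the opposite strand, and 8 bases before it in MRPL33. YY1 matches begin 13 bases after the start in MRPS30 and 16 bases after it in MRPL1. In the MRPS35 window none of the 3 motifs was found, which says only that these letters are not in it. The 5 genes that fell with hairpin 3 thus share none of the 3 motifs in these windows. MRPS34 holds 3 GABPA matches, 71, 29 and 19 bases before the start and all on the opposite strand, and MRPS12 holds 1 that starts 5 bases before it. Promoters of 300 bases (250 before and 50 after the start) were found for 67 of the 76 members. The GABPA motif was in 41.8% of them, against 10.7% of 27305 promoters in all. YY1 was in 26.9% against 3.37%, and NRF1 in 10.4% against 6.28%. The 27305 promoters were not matched to those of the members by level or type of gene, so these shares do not show a trait particular to the members. A match is a description of the letters and not a site of binding.

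Knockdown of ZNF395, with the hairpins pooled against the controls, gave subunit medians of the mitochondrial ribosomal protein genes close to the control. None of the 75 tested was called by edgeR's quasi-likelihood test (0 of 75, with 0% of all genes called), by DESeq2 (0) or by limma-voom (0). The silenced gene itself, ZNF395, at -2.29 on the log2 scale (SE 0.235), did not pass edgeR's test here either (adjusted p = 0.358), nor limma-voom (adjusted p = 0.244), whereas DESeq2 called it (adjusted p = 5.73e-11), so the absence of calls by edgeR and limma-voom does not show that levels were stable. At an unadjusted p under 0.05 there were 2 of 75, compared with 5.03% of all genes. The median log2 fold change was -0.001 for the large and -0.018 for the small subunit, beside 0 for all genes tested, and single genes lay between -0.47 and 0.30. The lowest p-values belonged to MRPS34, a mitochondria-specific protein of the small subunit whose loss causes Leigh syndrome, and MRPS12, the counterpart of the bacterial protein at the decoding centre. MRPS34 was at 96.6, 69.2 and 90.9 CPM in 786-O and at 88.2, 56.1 and 62.4 CPM in A-498. MRPS12 was at 41.7, 31.9 and 38 CPM in 786-O and at 52.6, 32.2 and 38.7 CPM in A-498. In each line both genes were highest in the control and lowest with hairpin 1. Their log2 fold changes were -0.43 (SE 0.171) and -0.42 (SE 0.167), with an adjusted p of 0.939 for each in edgeR's test.

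The next smallest p-values of each direction went to MRPL35 with a log2 fold change of -0.34 (SE 0.166), and to MRPL11, MRPS23 and MRPL42 with 0.30 (SE 0.153), 0.30 (SE 0.17) and 0.26 (SE 0.153). None passed edgeR's test, in which the adjusted p was 0.939 for each of them. MRPL11 belongs to the site where translation factors dock, while MRPS23 and MRPL42 are mitochondria-specific. All 4 ratios of a knockdown library to its control were negative for 14 genes (14% of all genes tested) and positive for 11 (13.1% of all genes). Together that is 33.3% of the members and 27.1% of all genes. The authors' deposited table, which sets control over knockdown, lists 0 members at an adjusted p under 0.05. Its smallest adjusted p for a member is 0.814, for MRPS12.

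**Figure D1:**
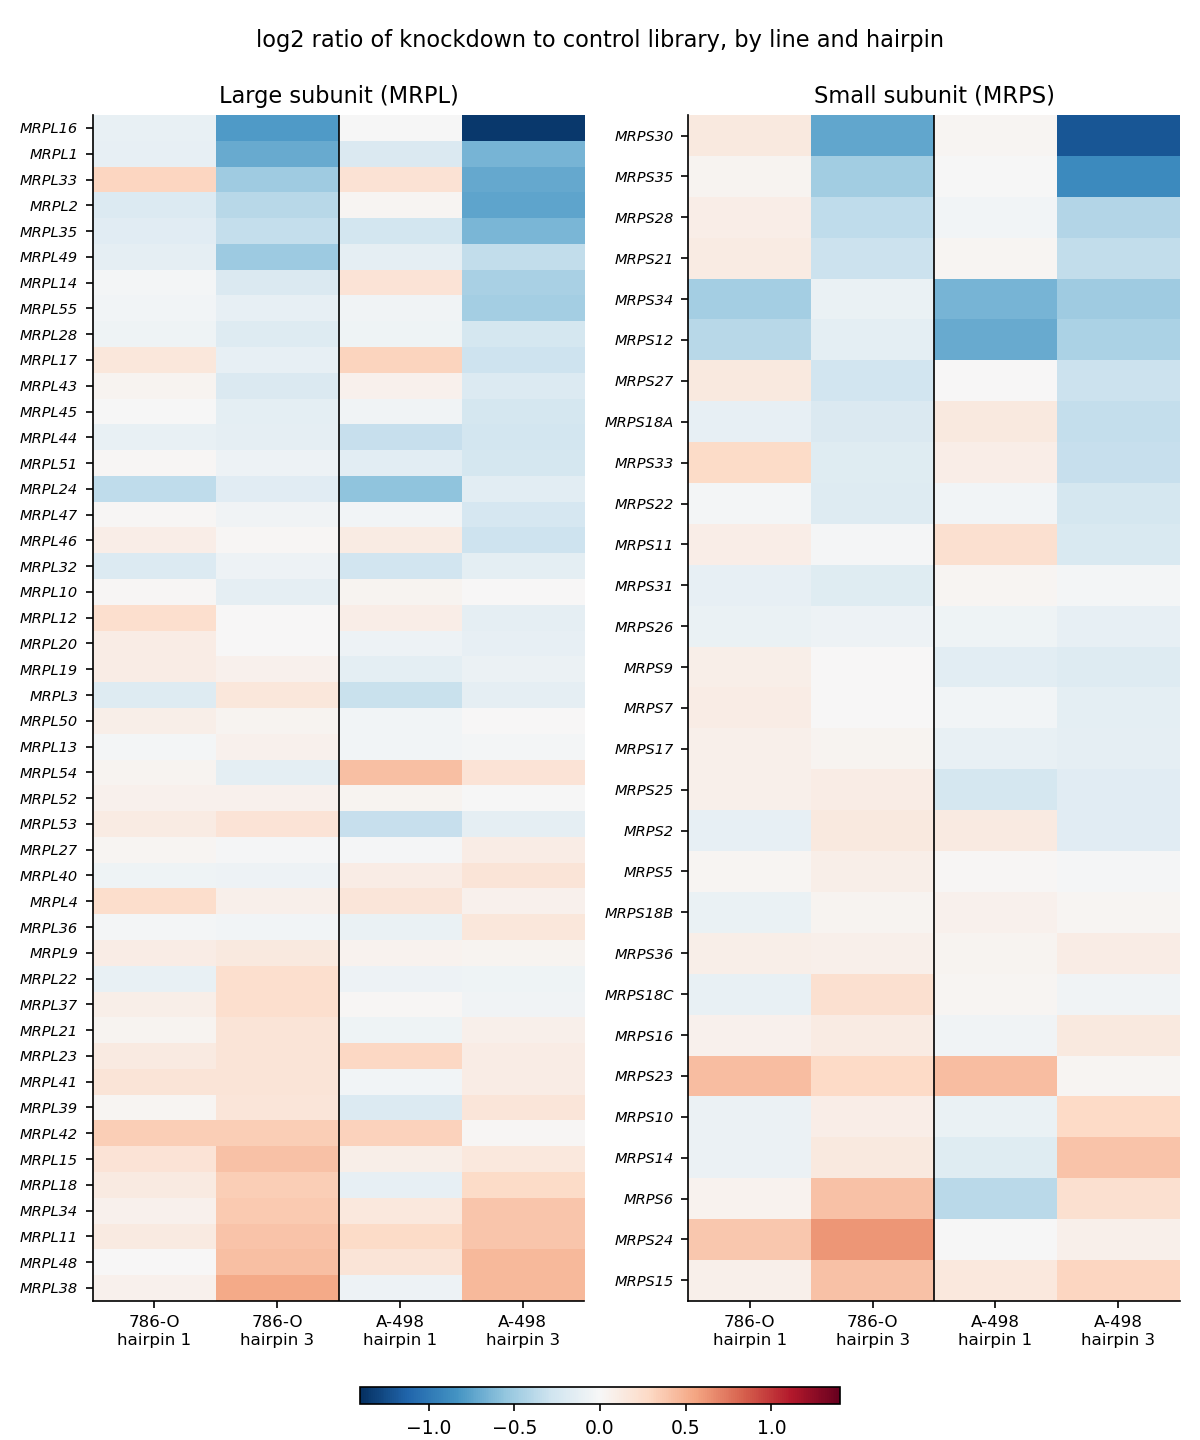
Log2 ratio of each knockdown library to the control library of its line for the 75 genes tested, in columns by line and hairpin and in rows sorted within each subunit by the mean of the hairpin 3 ratios. Blue is lower and red is higher than the control. The hairpin 3 columns hold the strongest blue, at the top with MRPL16 and MRPS30, whereas the hairpin 1 columns are pale apart from MRPS34, MRPS12 and a few others.

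The hairpins were then compared with the control separately, in a model with line and construct. With hairpin 1, edgeR called 0 of 75 (0.149% of all genes, 0.0397% higher and 0.109% lower), limma-voom 0 (0.184% of all genes) and DESeq2 2 (2.31%). An unadjusted p under 0.05 was found for 5 (10.5% of all genes). The 2 called by DESeq2 were MRPS34 (log2 fold change -0.57, SE 0.138, edgeR adjusted p = 0.234) and MRPS12 (-0.55, SE 0.137, edgeR adjusted p = 0.239). DESeq2 gave them adjusted p-values of 0.0366 and 0.0448. Of the edgeR fits that left out a library, only those without a hairpin 3 library, from either line, brought MRPS34 past the threshold. Such fits keep a single hairpin 3 library and fewer residual degrees of freedom. The share of all genes called in them is not given here. MRPL24, the counterpart of a bacterial assembly-initiating protein, was at -0.46 (SE 0.123, edgeR adjusted p = 0.266). On the higher side stood MRPS23 with 0.44 (SE 0.125, edgeR adjusted p = 0.296), MRPL42 with 0.33 (SE 0.132, edgeR adjusted p = 0.447) and MRPL33 with 0.25 (SE 0.119, edgeR adjusted p = 0.536). MRPS12 overlaps SARS2, the mitochondrial seryl-tRNA synthetase, which covers 16.3% of its exonic bases on the opposite strand. SARS2 was at 0.23 with hairpin 1 (SE 0.301, edgeR adjusted p = 0.856), less than its SE from 0. Its level was under 1 CPM throughout, at 0.367, 0.523 and 0.44 CPM in 786-O and at 0.742, 0.749 and 0.603 CPM in A-498. At this level the sign of its change is not resolved, and the part of the overlap in the count of MRPS12 was not tested. The subunit medians were 0.003 for the large and 0.014 for the small subunit.

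With hairpin 3, edgeR called 5 of the 75 genes, all lower: MRPS30, MRPL16, MRPL33, MRPL1 and MRPS35. Of all genes tested, 6.71% were called with hairpin 3, 4.16% lower and 2.55% higher, so the members' share of 6.67% is near the background. Leading with MRPS30, the level fell by 0.96 on the log2 scale (SE 0.148, edgeR adjusted p = 0.0197), and MRPL16 had the greatest fold change of the 5, at -1.06 (SE 0.189, edgeR adjusted p = 0.0275). Unadjusted p-values were under 0.05 for 16 of 75 (25.8% of all genes). DESeq2 called 8 lower and 1 higher (12.9% of all genes called), limma-voom 5 lower (8.12% of all genes), and each of these included the same 5 genes.

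MRPS30 encodes a mitochondria-specific protein that was first described as a protein of programmed cell death. It was at 67.3, 74.2 and 40.5 CPM in 786-O and at 57.5, 58.5 and 25.1 CPM in A-498. Both hairpin 3 libraries lay under all 4 others. The gene is on chromosome 5 (44808925 to 44820428, plus strand, GENCODE v29 on GRCh38) and shares no exonic base with another gene.

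MRPL16, the counterpart of a bacterial protein that lines the path of the tRNAs in the large subunit, was at 33.6, 31.3 and 19.4 CPM in 786-O and at 23.6, 23.4 and 9.23 CPM in A-498. In A-498 the hairpin 1 library was level with the control, and the hairpin 3 ratio was -1.35 on the log2 scale, compared with -0.79 in 786-O. With 1 library for each, the difference between those ratios could not be tested. MRPL16 lies on chromosome 11 (59806135 to 59810872, minus strand) with no exonic overlap.

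MRPL1, the counterpart of the protein of the mobile stalk where spent tRNA leaves, had the lowest level per length of the 5, with a mean of 12.4 CPM per kb. It was at 22.8, 21.1 and 14.0 CPM in 786-O and at 21.3, 18.5 and 13.6 CPM in A-498. Hairpin 3 gave a log2 fold change of -0.68 (SE 0.138, edgeR adjusted p = 0.0371). It has no exonic overlap with another gene on chromosome 4 (77862520 to 77952790, plus strand).

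MRPL33 was at 73.7, 91.0 and 52.1 CPM in 786-O and at 84.7, 97.3 and 51.5 CPM in A-498. In both lines hairpin 1 was above the control and hairpin 3 below it. Hairpin 3 against the control gave -0.61 (SE 0.12, edgeR adjusted p = 0.0339). Because MRPL33 overlaps BABAM2 on chromosome 2 (27771717 to 27988087, plus strand), that gene, listed as BRE in the count table, was read beside it. BRE had a log2 fold change of -0.32 with hairpin 3 (SE 0.129, edgeR adjusted p = 0.178).

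MRPS35, a mitochondria-specific protein of the small subunit, was at 95.1, 97.9 and 67.6 CPM in 786-O and at 102.5, 101.9 and 55.2 CPM in A-498. Its log2 fold change with hairpin 3 was -0.69 (SE 0.141, edgeR adjusted p = 0.0374), and hairpin 1 was level with the control in both lines. The gene is on chromosome 12 (27710773 to 27756295, plus strand) and overlaps no other exon.

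For all 5 genes the hairpin 3 libraries of both lines lay under the 4 other libraries without overlap. This held for 8 of the 75 members in all (7.56% of all genes tested) and the opposite held for 5 (7.57%). The further 3 below were MRPL55, MRPS11 and MRPS18A, named here after their values were seen. Just outside the threshold for hairpin 3 stood MRPL35 (log2 fold change -0.488, edgeR adjusted p = 0.07), MRPL49 (-0.424, 0.0822) and, on the higher side, MRPL48 (0.434, 0.0998). Of the 5 calls, MRPL16, MRPL33 and MRPL1 have a bacterial counterpart, while MRPS30 and MRPS35 are mitochondria-specific, a class taken from general knowledge.

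**Figure D2:**
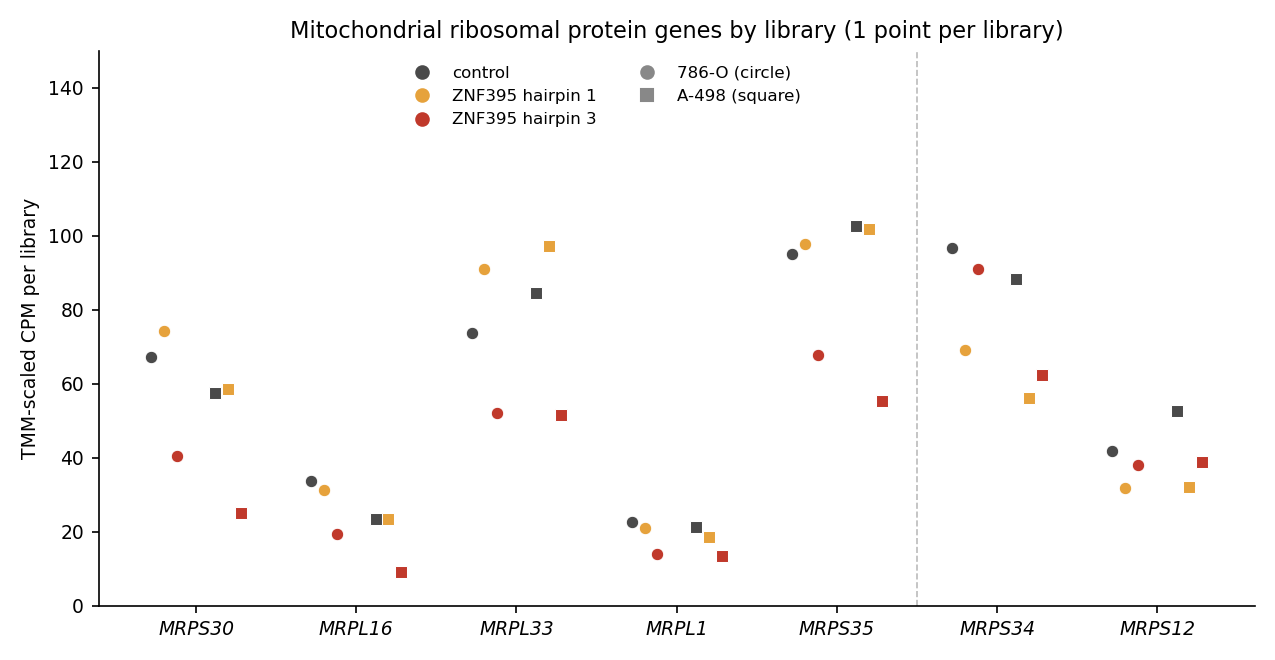
TMM-scaled CPM of each library for the 5 genes that fell with hairpin 3 (left of the dashed line) and for MRPS34 and MRPS12 (right of it). Circles are 786-O, squares are A-498 and colours give the construct, with no error bars because each point is a single library. On the left the red hairpin 3 points lie under the other points of each gene, while on the right the hairpin 1 points are the lowest of each line.

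Most other members moved little with hairpin 3. A log2 fold change beyond 0.5 in either direction was seen in 7 of 75 members (9.33%) and in 30.9% of all genes. The wider set was not matched to the members by level. The median was 0.018 for the large and -0.068 for the small subunit, beside -0.01 for all genes. Leaving out a library changed the calls: the 5 became 0 without the 786-O control, 0 without the A-498 control, 2 without 786-O hairpin 1, 3 without A-498 hairpin 3 and 7 without 786-O hairpin 3. All 5 kept their direction in each of these fits. The share of all genes called in them is not given here. A general loss of calls thus cannot be told apart from one particular to the members.

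Set directly against hairpin 1, hairpin 3 had 4 of the 75 genes called by edgeR, all lower (9.48% of all genes called, 5.4% lower and 4.09% higher). DESeq2 called 8 lower and 1 higher, MRPS6 (14.8% of all genes), and limma-voom 5 lower (11.5%). MRPS6 was at 0.482 and did not pass edgeR's test (adjusted p = 0.0782). At an unadjusted p under 0.05 there were 18 (28% of all genes). The 4 were MRPL33 with -0.86 (SE 0.12, edgeR adjusted p = 0.0134), MRPS30 with -1.04 (SE 0.148, edgeR adjusted p = 0.0138), MRPL16 with -1.01 (SE 0.189, edgeR adjusted p = 0.026) and MRPS35 with -0.70 (SE 0.141, edgeR adjusted p = 0.0311). MRPL1 was at -0.518 and did not pass edgeR's test (adjusted p = 0.0636). This comparison shares the hairpin 3 libraries with the one above and is not independent of it. Without 786-O hairpin 1 none of the 4 was called, without A-498 hairpin 1 MRPS30 and MRPL33 were, and without 786-O hairpin 3 the count was 8. For ZNF395 itself, hairpin 3 against hairpin 1 was at -0.44 on the log2 scale (SE 0.205) and did not pass edgeR's test (adjusted p = 0.217).

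The order of the members under hairpin 3 was alike in the lines, which have separate controls. Over the 75 members the hairpin 3 ratios of 786-O and A-498 had a Pearson correlation of 0.847 and a Spearman correlation of 0.8, compared with 0.458 and 0.47 over all 20144 genes. Lower in both lines were 31 members (33.9% of all genes) and higher in both 23 (33.7% of all genes). The sign was thus the same for 72% of members and 67.7% of all genes. For hairpin 1 the correlations over members were 0.645 and 0.45, compared with 0.334 and 0.345 over all genes, and the sign was the same for 61.3% of members and 62.4% of all genes. These are descriptions across genes, which are not independent, and within a line all points share the same pair of libraries. For hairpin 3 the SD of the ratios over members was 0.28 in 786-O and 0.34 in A-498, against 0.701 and 0.631 over all genes. The wider set was not matched to the members by level, and the part of count noise in its correlations was not tested.

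**Figure D3:**
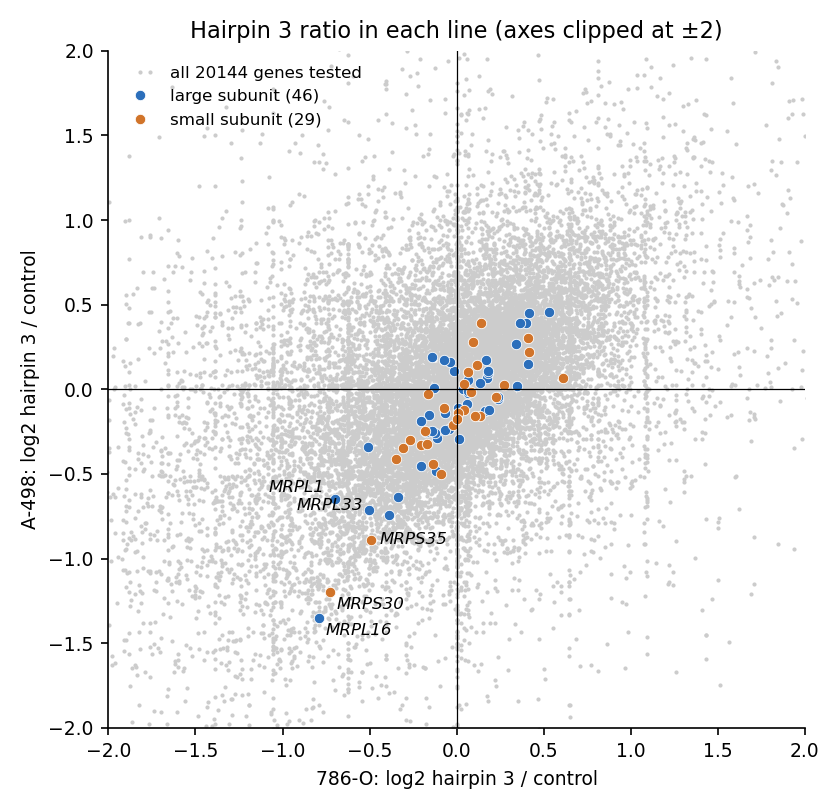
Log2 ratio of the hairpin 3 library to the control library in 786-O (horizontal) and A-498 (vertical), with grey points for all 20144 genes tested and coloured points for the 46 large and 29 small subunit genes. Points outside 2 on either axis are not shown. The members form a narrow band near the origin, and the 5 named genes lie at its lower left end.

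Within each line, knockdown against the single control called no member in edgeR, DESeq2 or limma-voom. In edgeR that was 0 of 75 in 786-O and 0 of 75 in A-498, with 0% of all genes called in each. Of all genes, DESeq2 called 4 higher and 6 lower in 786-O and 15 higher and 8 lower in A-498, and limma-voom 0. In edgeR, 0 members had an unadjusted p under 0.05 in either line (1.66% of all genes in 786-O and 1.73% in A-498). In 786-O the 3 lowest p-values of each direction belonged to MRPL49 (log2 fold change -0.31), MRPL1 (-0.38) and MRPS34 (-0.27), and to MRPL42 (0.35), MRPS23 (0.36) and MRPL15 (0.31). In A-498 they belonged to MRPS12 (-0.57), MRPS34 (-0.57) and MRPL35 (-0.44), and to MRPL11 (0.33), MRPL54 (0.31) and MRPL48 (0.32). MRPS34 was the only member named on the lower side in both lines. ZNF395 was at -2.34 in 786-O and -2.24 in A-498 and did not pass edgeR's test in either (adjusted p = 1), so the absence of calls by edgeR within a line does not show stable levels.

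The knockdown effect in A-498 minus that in 786-O was called for 0 of 75 members by edgeR, DESeq2 and limma-voom (0 of all genes by each). At an unadjusted p under 0.05 there were 0 members and 0.789% of all genes. The difference was negative for 57 of the 75 members and for 10422 of the 20144 genes tested. Its medians were -0.082 for the large and -0.080 for the small subunit, beside -0.013 for all genes. The values furthest from 0 by their p were those of MRPS25 (-0.29), MRPS12 (-0.31) and MRPS34 (-0.30) on the lower side. On the higher side stood MRPL54 (0.36), MRPL40 (0.21) and MRPS31 (0.14), none past edgeR's test (adjusted p = 1 for each). All members share the 2 control libraries in this contrast, so a shift of many members in the same direction is not a count of independent observations.

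The lines themselves differed in 22 of the 75 genes, of which 16 were lower and 6 were higher in A-498 than in 786-O. This is 29.3% of the members, compared with 47.2% of all genes (21.4% lower and 25.7% higher). Unadjusted p-values were under 0.05 for 33 members (54.9% of all genes). DESeq2 called 20 lower and 6 higher (49.2% of all genes called), and limma-voom 17 lower and 6 higher (47.8% of all genes). The median difference was -0.221 for the large and -0.131 for the small subunit, beside 0.02 for all genes. Every A-498 library lay below every 786-O library for 31 members (28% of all genes) and above for 12 (31.1% of all genes). Changes beyond 0.5 were seen in 24% of members and 59.4% of all genes, a set not matched to the members by level.

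**Figure D4:**
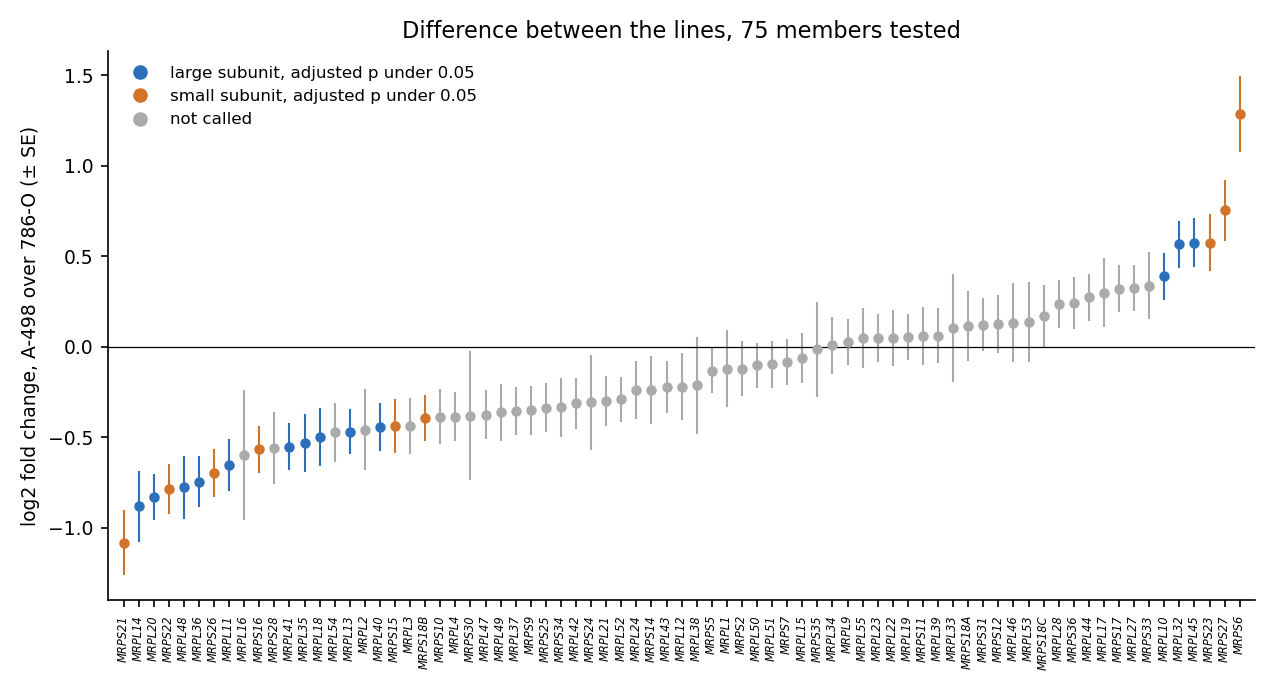
Log2 fold change of A-498 over 786-O for the 75 genes tested, sorted, with bars of 1 SE from edgeR's fit. Colour marks the 22 genes with an adjusted p under 0.05. The 16 lower genes end on the left with MRPS21 at -1.08, and MRPS6 stands at the right end at 1.29.

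Of the large subunit, MRPL20, MRPL14, MRPL36 and MRPL11, all with a bacterial counterpart, were the clearest differences. MRPL20, whose bacterial relative is needed to fold the rRNA early in assembly, was at 60.7, 64.98 and 60.96 CPM in 786-O and at 36.5, 34.7 and 33.8 CPM in A-498. Within a line the 3 libraries were close, and the lines did not overlap (log2 fold change -0.83, SE 0.128, edgeR adjusted p = 0.00266). MRPL14, a protein of the subunit interface, was at 66.6, 65.4 and 57.7 CPM in 786-O and at 35.9, 41.0 and 26.2 CPM in A-498. Its log2 fold change was -0.88 (SE 0.195, edgeR adjusted p = 0.0106). The values for MRPL36 were -0.75 (SE 0.141, edgeR adjusted p = 0.00578) and for MRPL11 -0.65 (SE 0.143, edgeR adjusted p = 0.0101).

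In the small subunit, MRPS21, the counterpart of bacterial S21, was at 40.2, 43.5 and 32.5 CPM in 786-O and at 19.57, 19.96 and 15.41 CPM in A-498. Its log2 fold change of -1.08 (SE 0.181, edgeR adjusted p = 0.00362) was the lowest of all members. MRPS22 and MRPS26 are mitochondria-specific, and mutations of MRPS22 cause a disorder of oxidative phosphorylation. MRPS22 was at -0.78 (SE 0.139, edgeR adjusted p = 0.0045) and MRPS26 at -0.70 (SE 0.131, edgeR adjusted p = 0.00562).

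MRPS6, the counterpart of a bacterial protein of the platform, was the member most above 786-O. It was at 29.7, 30.7 and 39.5 CPM in 786-O and at 82.9, 63.6 and 96.6 CPM in A-498, a log2 fold change of 1.29 (SE 0.21, edgeR adjusted p = 0.00325). All A-498 libraries were above all those of 786-O. Of the exonic bases of MRPS6, 9.6% are covered by genes on the same strand, among them SLC5A3, the myo-inositol transporter whose transcripts share its first exons. SLC5A3 was higher in A-498 as well, by 2.42 on the log2 scale (SE 0.181, edgeR adjusted p = 0.000155). Its part in the count of MRPS6 was not tested.

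The remaining 14 calls were MRPS27, MRPL32, MRPL45, MRPS23 and MRPL10 on the higher side and 9 on the lower side, with log2 fold changes of -0.776 (MRPL48) to -0.392 (MRPS18B). MRPS27, a protein with pentatricopeptide repeats, had the second greatest rise at 0.754. Pseudogenes with the name of the member are in the count table for 6 of the 22 (MRPL35, MRPL40, MRPL45, MRPL48, MRPS15 and MRPS21), and the values of these genes are uncertain where reads could fit both copies. Leaving out either control left 4 of the 22 calls, namely MRPL20, MRPS6, MRPS21 and MRPS22, and leaving out any other library left 14 to 18 of them. With the hairpin number as a replicate block, which lowers the residual degrees of freedom from 3 to 2 and takes the difference between hairpins out of the error, 42 members were called (9 higher and 33 lower), the 22 among them. That is 56% of the members, compared with 61.9% of all genes under the same block.

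The differences between the lines went with chromosomal position. For each member the median difference of the other tested genes within 5 Mb on either side was taken, with 14 to 224 neighbours per member. Over the 75 members, the member's own log2 fold change and this median had a Pearson correlation of 0.695 and a Spearman correlation of 0.742. Over 15553 genes with a position the same measure gave 0.14 and 0.281. That wider set had an SD of 2.305 in its difference between the lines, against 0.414 for the members. These correlations are descriptions across genes, which share the 6 libraries and, where they are close together, part of their neighbours.

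Of the 22 called members, 20 had neighbours whose median went the same way: 6 of 6 higher and 14 of 16 lower. Over all 7533 called genes with a position the sign was the same for 66.2%, with 59.9% of the higher and 73.3% of the lower. The exceptions were MRPL35 and MRPS21, whose neighbours stood at 0.108 and 0.056. MRPL20, near the end of the short arm of chromosome 1 (1401908 to 1407313), was at -0.83, and its 77 neighbours had a median of -0.844. MRPS27 on chromosome 5 (72219409 to 72320646) was at 0.754 with a neighbour median of 0.742, whereas MRPL36, elsewhere on the same chromosome (1798386 to 1801366), was at -0.745 with -0.427. Within the quartiles of their neighbours lay 62 of the 75 members, among them 15 of the 22 called, compared with 48.2% of all positioned genes and 22.8% of the called ones. The part of the members' smaller spread, given above, in this share was not tested. MRPS6 (1.29) was above the upper quartile of its 56 neighbours, 0.741, and MRPS21 (-1.08) was below the lower quartile of its 157, -0.4.

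**Figure D5:**
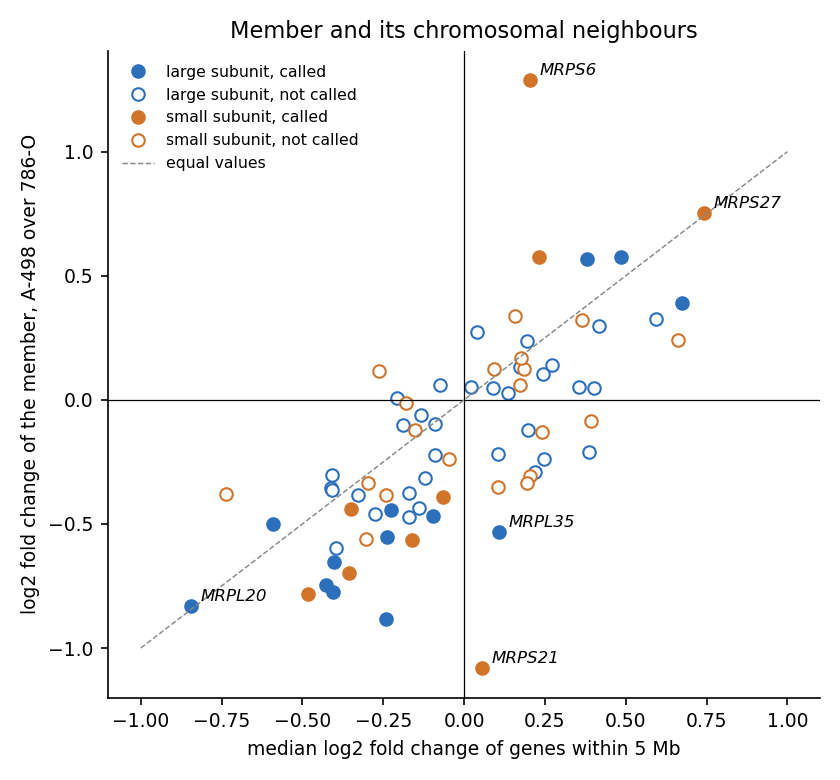
Log2 fold change of A-498 over 786-O of each of the 75 members (vertical) against the median of the same value over the tested genes within 5 Mb (horizontal). Filled points are the 22 called members, open points the others, and the dashed line marks equal values. Filled points lie in the lower left and upper right parts apart from MRPL35 and MRPS21, and MRPS6 stands far above the line.

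Other parts of the mitochondrial translation system were read from lists of genes chosen for their function. The 7 mitochondrial ribosomal proteins with other names, such as DAP3 and PTCD3, were read first. None was called with either hairpin by edgeR, DESeq2 or limma-voom (0 with hairpin 1 and 1 with hairpin 3 at an unadjusted p under 0.05). Between the lines, 3 of 7 were called lower in A-498 (21.4% of all genes). These were AURKAIP1 (-0.90, edgeR adjusted p = 0.00195), CHCHD1 (-0.708, edgeR adjusted p = 0.00637) and GADD45GIP1 (-0.603, edgeR adjusted p = 0.0139). With hairpin 1, 0 genes of these and of the lists below were called by edgeR, DESeq2 or limma-voom, and 2, both of mitochondrial transcription, had an unadjusted p under 0.05.

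With hairpin 3, edgeR called 1 of 26 assembly factors (6.71% of all genes), which fell: NSUN4, which methylates the small rRNA and helps to join the subunits. It was at 39.7, 38 and 25.2 CPM in 786-O and at 33.2, 37.1 and 19.7 CPM in A-498 (log2 fold change -0.705, SE 0.137, edgeR adjusted p = 0.0328). Hairpin 3 was the lowest library of each line, as for the 5 members that fell. limma-voom called NSUN4 alone, and DESeq2 called it together with NGRN, a factor of large subunit assembly, on the higher side (0.529, edgeR adjusted p = 0.0682). Of 18 translation factors 0 were called with hairpin 3 by edgeR, DESeq2 or limma-voom, with 2 at an unadjusted p under 0.05. Over all genes, DESeq2 called 12.9% and limma-voom 8.12% with hairpin 3. Of 22 genes for aminoacyl-tRNA synthesis edgeR and limma-voom called 1, which rose: GARS, the glycyl-tRNA synthetase of both cytosol and mitochondria (1.006, SE 0.155, edgeR adjusted p = 0.0197). GARS was at 289, 300 and 527 CPM in 786-O and at 279, 413 and 623 CPM in A-498. DESeq2 called GARS and 3 lower genes of this list, KARS (-0.589, edgeR adjusted p = 0.0682), PET112 (-0.463, edgeR adjusted p = 0.081) and HARS2 (-0.426, edgeR adjusted p = 0.0799), so by that tool most called genes of the list were lower.

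The counts of this paragraph stand beside 6.71% of all genes called with hairpin 3 by edgeR, 12.9% by DESeq2 and 8.12% by limma-voom. Of 10 genes of mitochondrial transcription edgeR and limma-voom called 1 with hairpin 3, which fell: TFB2M, which opens the promoters of mitochondrial DNA for its RNA polymerase. TFB2M was at 31.3, 28.9 and 16.0 CPM in 786-O and at 37.0, 33.5 and 14.5 CPM in A-498 (log2 fold change -1.161, SE 0.152, edgeR adjusted p = 0.0146). DESeq2 called TFB2M and, on the higher side, POLG, the mitochondrial DNA polymerase (0.434, edgeR adjusted p = 0.0766). The 13 mRNAs encoded in mitochondrial DNA had a median of -0.082, with 0 called by edgeR, DESeq2 or limma-voom and 1 at an unadjusted p under 0.05. Of the 12 regulators of nuclear genes for mitochondria, GABPA fell (-0.605, SE 0.125, edgeR adjusted p = 0.0385) and GABPB1, its partner subunit, rose (0.88, SE 0.151, edgeR adjusted p = 0.0247). MYC rose as well (0.585, SE 0.129, edgeR adjusted p = 0.046). limma-voom called the same 3, and DESeq2 called them and 2 higher genes, HCFC1 (0.558, edgeR adjusted p = 0.0915) and SP1 (0.414, edgeR adjusted p = 0.0884). GABPA was at 47.7, 48.7 and 34.0 CPM in 786-O and at 44.7, 43.6 and 27.1 CPM in A-498, and GABPB1 at 28.7, 27.2 and 60.6 CPM and at 25.9, 24.6 and 41.3 CPM. These subunits make up the factor that binds the ETS motif searched for above. Of the 5 members that fell, MRPL16 and MRPL33 hold that motif in the printed window. Over the 300-base promoters of the members it was in 41.8%. The part of this factor in the levels of the members was not tested.

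Between the lines, 1 of the 2 mitochondrial rRNAs that the ribosomal proteins bind differed (47.2% of all genes). MT-RNR2, the large mitochondrial rRNA, was at 5250, 5290 and 4910 CPM in 786-O and at 12900, 7520 and 8420 CPM in A-498 (log2 fold change 0.862, SE 0.174, edgeR adjusted p = 0.00746). Its 3 A-498 libraries were above the 3 of 786-O, and the A-498 control was the highest. MT-RNR1, the small mitochondrial rRNA, was at 674, 691 and 850 CPM in 786-O and at 769, 652 and 785 CPM in A-498, where the lines overlapped (log2 fold change -0.003, SE 0.158, edgeR adjusted p = 0.989). The members of the large subunit went the other way in their median (-0.221). The rRNA values are read counts after library preparation. MT-RNR1 lay below the mRNA MT-CO1, which was at 9240 to 9360 CPM in 786-O and 14600 to 17400 CPM in A-498. Whether library preparation removed rRNA, and its part in these values, was not tested. Genes of mitochondrial DNA as a whole took 5.13 to 5.45% of the counts in 786-O and 7.02 to 8.21% in A-498.

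The counts of the lists below stand beside 47.2% of all genes called between the lines, 25.7% higher and 21.4% lower in A-498. Of the lists, assembly factors had 6 higher and 4 lower of 26 in A-498. They were led by MTG2, a GTPase of large subunit assembly (-0.978, edgeR adjusted p = 0.00131), and its relative MTG1 (0.937, edgeR adjusted p = 0.00852). Translation factors had 2 higher and 4 lower of 18, among them GFM2, which helps to recycle ribosomes (0.931, edgeR adjusted p = 0.00565), and the elongation factor GFM1 (-0.498, edgeR adjusted p = 0.0165). Genes for aminoacyl-tRNA synthesis had 3 higher and 4 lower of 22, with WARS2 at -1.243 (edgeR adjusted p = 0.0011). Both called genes of mitochondrial transcription, POLRMT (-0.939, edgeR adjusted p = 0.00968) and POLG (-0.563, edgeR adjusted p = 0.0116), were lower in A-498. The list of mitochondrial rRNA and protein quality control had 0 higher and 2 lower of 10. The regulators had 2 higher and 1 lower of 12, and the mRNAs of mitochondrial DNA 1 higher and 0 lower of 13. The called genes thus differed in both directions in some lists and in a single direction in others. With hairpin 3, edgeR and limma-voom called 0 of the quality control list, and DESeq2 called 1 higher, HSPA9 (12.9% of all genes).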

How the data were processed

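Gene expression was measured by RNA-seq in 6 libraries. The authors deposited whole-number read counts per gene symbol, without normalization. Per the file headers, the authors also deposited a mean normalised signal, a log2 fold change with error, a Wald score and p-values for each gene. STAR, DESeq2, hg19 and hs37d5 are named in the submitters' processing notes, without roles. The sources used here do not give the counting tool, the annotation or the strand setting. Libraries were grouped by their titles, no batch or date is labelled, and 0 columns of per-sample values were left unmapped.

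Testing used edgeR 4.0.16 (R 4.3.3): TMM scaling, edgeR's expression filter (20144 genes kept), quasi-likelihood F tests and Benjamini-Hochberg adjustment over all genes kept. Line and knockdown status were the terms for the pooled knockdown and for the lines (3 residual degrees of freedom), line and construct those for the hairpins (2), and 4 means those within lines (2). SE values were derived from F. Log-CPM ratios used a prior count of 2. The method was tested on simulated data. Alternatives were DESeq2 1.42.0, limma-voom (limma 3.58.1), DESeq2 size factors, no filter, each library left out and a hairpin block.

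Replicate numbers in the labels are hairpin numbers, so same-numbered libraries share a reagent. Over all genes, hairpin 3 minus hairpin 1 had a Pearson correlation of 0.439 between the lines (Spearman 0.427). The members and lists were chosen with earlier results of these data known. Named members were, per comparison, the 8 called with the smallest p, or, with fewer than 3 called, the 3 smallest p-values of each direction. Added to these were the 3 highest and 3 lowest levels, MRPS18A to MRPS18C, MRPL12, MRPS30, MRPS36, members that the filter removed, and up to 4 called genes per list. Positions and overlaps are from GENCODE v29 (GRCh38) and promoters from RefSeq (GRCh38.p14), not from the authors' build. The protein class (bacterial counterpart or mitochondria-specific) was assigned by hand. After scaling, 1 CPM stands for 75.0 to 99.7 counts.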

Additional observations from a re-analysis of the deposited data

How the results depend on the processing

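With 1 library per line and construct, each fit has 2 or 3 residual degrees of freedom, and leaving out a library lowers that further. The counts of members called with DESeq2 were 2 for hairpin 1 against control, 9 for hairpin 3 against control and 9 for hairpin 3 against hairpin 1, compared with 0, 5 and 4 by edgeR. With the replicate block, the count for A-498 against 786-O was 42 in place of 22, and the block left the count at 0 in knockdown against control, within each line and in the difference between lines. Leaving out each library in turn gave 4 to 19 members for the lines, 0 to 1 for hairpin 1, 0 to 7 for hairpin 3 and 0 to 8 for hairpin 3 against hairpin 1, and 0 for the comparisons of knockdown that pool the hairpins. Within-line effects have no value without that line's control. Where a call was lost, the cause beyond fewer samples was not tested. The share of all genes called without a library is not given here. Of the alternative values for single members named by the rule, 444 kept their direction and their side of the threshold, 30 lost the call and 4 gained it, and no called value changed sign in the alternatives run. Of the subunit medians under other scaling, filter or libraries, 108 stayed within and 12 moved beyond the spread allowed. Without the filter, the median of all genes moved to 0.122 for the lines (0.02 with it), and 20 members were called. The share of all genes called without the filter is not given here. Depth limits little at these levels: apart from MRPL30, the members with the fewest reads stood near 1 CPM.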
